A study of Mus musculus with 8 samples.

Results

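The type I interferon stimulated genes described here are 39 genes chosen by their symbols. All 39 were represented among the 18193 genes of the array: probe sets annotated to exactly 1 of the symbols were taken, and where a gene had several, the brightest on average across the 8 arrays was used. Their RNA was measured in blood monocytes of male C57BL/6 mice whose age is not stated. The 4 groups were Gr1hi monocytes without beads, Gr1hi monocytes with beads, Gr1lo monocytes without beads and Gr1lo monocytes with beads, each on 2 arrays, called array 1 and array 2 by their replicate numbers. Gr1hi cells are the classical, Ly-6C hi monocytes and Gr1lo cells the nonclassical, Ly-6C lo monocytes. Mice in the 4 groups had been injected intravenously with fluorescent latex beads of 1 µm, taken up by phagocytosis, and the cells were sorted 4 days later by whether they carried beads. The study describes its replicates as biological, but the number of mice and cells behind an array is not given in the sources used here, so p-values measure the spread between these arrays. Liposomes loaded with clodronate, which kill phagocytes, had been given 3 days before the beads with no subset set apart in the series text, but only for the labelling of Gr1hi cells according to the treatment protocol. Under the protocol's reading, subset and pretreatment cannot be told apart.

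Type I interferons bind the receptor pair Ifnar1 and Ifnar2, whose kinases Jak1 and Tyk2 phosphorylate STAT proteins, among them Stat2. Stat2 and Irf9 are components of the complex ISGF3, which binds interferon-stimulated response elements in the promoters of its target genes. The targets include sensors of foreign nucleic acid, effectors that block viral replication, and regulators that amplify or end the response. Many are transcribed at a low level in resting cells through weak, continuous interferon signalling.

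Values are log2 expression levels, on which a difference of 1 unit is a doubling. The level below which a probe set could not be told from background was 6.98, the 95th percentile of 114 genes not expected in blood cells. On the 8 arrays, 37 of the 39 genes were above it throughout, Ifit1 on 6 arrays and Ddx60 on 2. The marker lists were chosen with earlier results of these data known, so they describe the sorted cells and do not test their labels. The mean of 6 classical monocyte markers was 12.54 to 12.88 on the Gr1hi arrays and 8.12 to 10.96 on the Gr1lo arrays. That of 9 nonclassical markers was 8.55 to 9.13 on the Gr1hi arrays and 11.85 to 12.15 on the Gr1lo arrays. Among the Gr1lo arrays, the classical mean was 10.96 and 10.12 without beads but 8.26 and 8.12 with beads. The mean of 8 neutrophil markers was 9.28 and 8.87 in Gr1hi cells without beads, 8.60 and 8.22 in Gr1hi cells with beads, and 6.42 to 6.70 in Gr1lo cells. The mean of 8 tissue macrophage markers was 9.44 on array 1 of the Gr1lo group without beads and 7.36 to 8.50 on the other 7 arrays. Of 8 markers of plasmacytoid dendritic cells, a main source of type I interferon, Siglech and Ccr9 were below background on all 8 arrays and the list mean was 6.30 to 6.54; Tcf4 and Klk1 were above background on all 8. The poly-A control transcripts added during labelling read 7.75 and 8.11 in Gr1hi cells without beads, 9.45 and 9.86 in Gr1hi cells with beads, 9.27 and 8.68 in Gr1lo cells without beads and 10.44 and 10.45 in Gr1lo cells with beads, so they were higher in Gr1lo cells and with beads, without overlap, in each comparison of subset or of beads. The part of these differences in the results below was not tested, and in bulk RNA fewer cells of a type and less RNA per cell cannot be told apart.

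The highest of the 4 group means fell in Gr1hi cells without beads for 35 of the 39 genes, a group that was highest for 30.9% of all genes. The exceptions were Eif2ak2, Stat2 and Ifitm3, highest in Gr1lo cells without beads, and Parp14, highest in Gr1lo cells with beads. The lowest mean fell in Gr1lo cells with beads for 19 genes, in Gr1lo cells without beads for 12 and in Gr1hi cells with beads for 8. Averaged over the 39 genes, the level was 10.0 and 9.81 on the Gr1hi arrays without beads, 9.66 and 9.40 on the Gr1hi arrays with beads, 9.30 and 9.04 on the Gr1lo arrays without beads, and, for Gr1lo with beads, 9.31 and 8.98. The Gr1hi arrays with beads lay between those of the other groups, and the pairs of Gr1lo arrays overlapped.

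**Figure D1:**
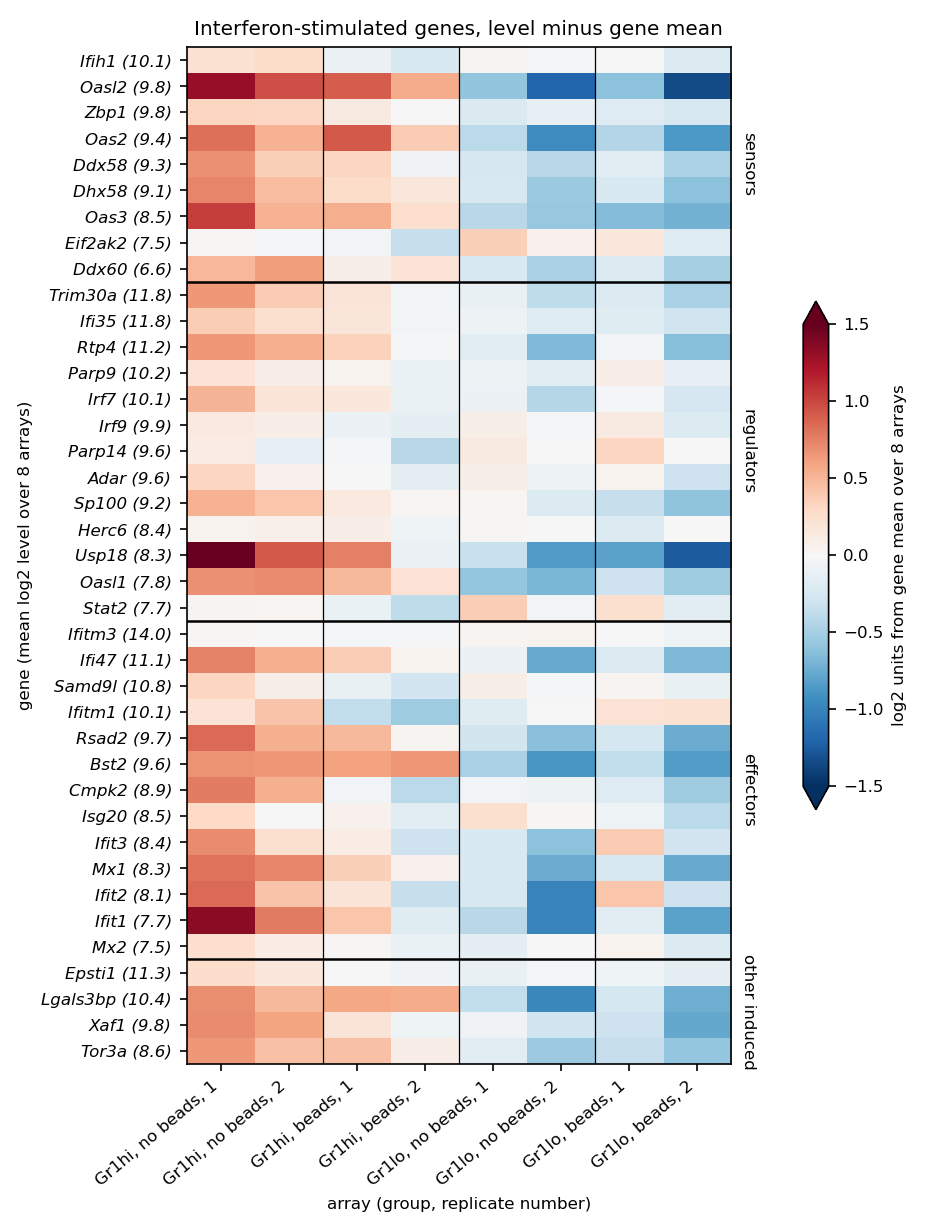
Log2 level of each of the 39 genes on each of the 8 arrays (columns), minus the gene's mean over the arrays; red is above and blue below that mean, which is given in parentheses after the gene symbol. Genes are grouped by role. The Gr1hi arrays without beads are red for most genes and the 4 Gr1lo arrays are mostly blue, with Eif2ak2, Stat2, Parp14 and Ifitm3 as exceptions.

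The comparison of Gr1lo with Gr1hi cells without beads is one of cells from bead-injected mice that carried no beads at sorting. Interferon-stimulated genes were lower in Gr1lo cells: 27 of the 39 were called lower and 0 higher (limma, Benjamini-Hochberg adjusted p under 0.05 over all 18193 genes), where 13.6% of all genes were called lower, 10.0% higher and 23.6% in either direction. The median difference was -0.77 for the 39 genes and -0.07 for all genes. The difference was below 0 for 35 of the 39, against 63.8% of all genes. Both Gr1lo arrays lay below both Gr1hi arrays for 33 of the 39, against 40.5% of all genes, and above them for 2, against 21.5%. By role, 7 of 9 sensors, 7 of 13 regulators, 9 of 13 effectors and the 4 other induced genes were called lower. Without array 1 of the Gr1hi group without beads, 16 of the 39 were called in place of 27, and 2631 of all genes in place of 4288.

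The sensor with the largest difference was Oasl2, an OAS-like protein that binds double-stranded RNA. It read 11.14 and 10.80 in Gr1hi cells and 9.23 and 8.64 in Gr1lo cells without beads. The Gr1hi level was 4.08-fold the Gr1lo level, a difference of -2.03 ± 0.27 (moderated SE; limma adjusted p = 0.000998). Oas2 and Oas3 make the oligoadenylate messenger that activates RNase L. Oas2 was at 10.25 and 9.94 against 9.02 and 8.48 (-1.35 ± 0.24; limma adjusted p = 0.0042), and Oas3 at 9.50 and 8.98 against 8.04 and 7.89 (-1.28 ± 0.17; limma adjusted p = 0.000944). For these 3 genes the arrays of the subsets did not overlap.

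The RNA helicases differed less, and not all of them passed the test. Dhx58, which encodes the helper helicase LGP2, was at 9.87 and 9.60 in Gr1hi and 8.89 and 8.58 in Gr1lo cells (-1.0 ± 0.16; limma adjusted p = 0.00238). Ddx58, which encodes RIG-I, the sensor of viral RNA ends, was at 9.98 and 9.65 against 9.04 and 8.88 (-0.85 ± 0.17; limma adjusted p = 0.00709). Ifih1, which encodes MDA5, the sensor of long double-stranded RNA, was at 10.37 and 10.42 against 10.18 and 10.11, a difference of -0.25 ± 0.10 that was not called (limma adjusted p = 0.112). Zbp1, a sensor of left-handed nucleic acid that triggers cell death, was called lower, with 10.09 and 10.08 in Gr1hi and 9.55 and 9.64 in Gr1lo cells. Ddx60, a helicase linked to RIG-I signalling, was called lower as well, but its Gr1lo readings of 6.37 and 6.11 were below background, so its difference of -0.92 is not a measured fold. Eif2ak2, the kinase PKR that stops translation, went the other way without passing the test, with 7.51 and 7.47 in Gr1hi and 7.85 and 7.55 in Gr1lo cells (0.21 ± 0.16; limma adjusted p = 0.373).

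Promoters of interferon targets were read to show the element by which ISGF3 binds. RefSeq windows of 300 bases on GRCm38.p6, 250 before to 50 after a gene's start, were at hand for 29 of the 39 genes. The core of the interferon-stimulated response element, GAAANNGAAA on either strand, was in a window of 12 of these 29 genes and of 3.99% of 27025 genes with a window. The stretches shown are those of 3 effectors and 1 sensor called lower and of 2 regulators, Trim30a, called lower, and Stat2, not called; they run from 5′ to 3′ on the gene's own strand, with the core in capitals.
Ifit1: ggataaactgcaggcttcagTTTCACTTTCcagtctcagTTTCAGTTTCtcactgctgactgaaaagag
Ifit3: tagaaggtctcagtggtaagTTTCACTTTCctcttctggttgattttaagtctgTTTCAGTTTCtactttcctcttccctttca
Rsad2: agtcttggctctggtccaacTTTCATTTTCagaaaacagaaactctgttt
Oas3: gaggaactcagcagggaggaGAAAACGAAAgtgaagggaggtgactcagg
Trim30a: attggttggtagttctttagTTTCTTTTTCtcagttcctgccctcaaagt
Stat2: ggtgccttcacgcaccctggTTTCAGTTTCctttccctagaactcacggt
Ifit1 holds the core in a pair, at 104 and 85 bases before the start (chr19:34640765-34640833, plus strand), and Ifit3 also in a pair, at 156 and 122 bases (chr19:34583353-34583436, plus strand). In Rsad2 the core stands 120 bases before the start (chr12:26456543-26456592, minus strand), in Oas3 75 bases (chr5:120777705-120777754, minus strand), in Trim30a 36 bases (chr7:104465200-104465249, minus strand) and in Stat2 222 bases (chr10:128270256-128270305, plus strand). Genes with and without the core were called: of the 12 genes with it 8 were called lower without beads, with a median difference of -0.87 and a range of -1.77 to 0.21, and of the 17 without it 12 were called, with a median of -0.56 and a range of -2.03 to -0.03. The gamma-activated site core TTCNNNGAA, bound by STAT dimers, was in a window of 7 of the 29 genes and of 9.55% of genes with a window. Both Oasl2 and Oasl1, which were called lower, had neither motif in this window.

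Among the regulators, the feedback inhibitors stood first. Usp18, which removes the modifier ISG15 from proteins and blocks signalling at Ifnar2, read 9.95 and 9.23 in Gr1hi and 7.97 and 7.45 in Gr1lo cells without beads. The difference was -1.88 ± 0.32 (limma adjusted p = 0.00361), with Gr1hi at 3.69-fold. Oasl1, which holds back translation of Irf7, read 8.46 and 8.48 against 7.19 and 7.08, a difference of -1.34 ± 0.12 (limma adjusted p = 0.000124). The arrays of the subsets were apart for both genes, and Oasl1 had the smallest adjusted p of the 39.

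Irf7, the factor that drives the induction of the interferon-alpha genes, differed by less. It was at 10.65 and 10.33 in Gr1hi and 10.05 and 9.71 in Gr1lo cells (-0.61 ± 0.16; limma adjusted p = 0.0255). Irf9 and Stat2, components of ISGF3, were not called: Irf9 read 10.01 and 9.96 against 9.95 and 9.83, and Stat2 7.69 and 7.68 against 8.02 and 7.60. Among the other regulators, Rtp4, a transmembrane receptor transporter that dampens the response, differed by -1.01, and Trim30a, a tripartite motif protein that restrains Toll-like receptor signalling, by -0.77. Sp100, a nuclear body protein, differed by -0.56 and Ifi35 by -0.44. These 4 were called lower. The mono-ADP-ribosyltransferase family members Parp9 (-0.27) and Parp14 (0.07), the ISG15 ligase Herc6 (-0.05) and the RNA-editing enzyme Adar (-0.19) were not.

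The IFIT proteins bind viral RNA, and Ifit1 recognises caps that lack methylation. Ifit1 was at 9.04 and 8.47 in Gr1hi cells and 7.27 and 6.70 in Gr1lo cells without beads, the last of these below background. It differed by -1.77 ± 0.30 (limma adjusted p = 0.00319), but the Gr1lo mean of 6.98 was no higher than background, so this is not a measured fold. Ifit2 was at 8.92 and 8.49 against 7.83 and 7.07 (-1.26 ± 0.31; limma adjusted p = 0.0204), and Ifit3 at 9.11 and 8.64 against 8.18 and 7.79 (-0.89 ± 0.25; limma adjusted p = 0.0335). Mouse Ifit3 has a near-identical neighbour, Ifit3b, and its reading may hold both.

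Bst2 encodes tetherin, which holds budding virus at the cell surface. It was at 10.22 and 10.20 in Gr1hi cells and 9.06 and 8.68 in Gr1lo cells without beads (-1.35 ± 0.17; limma adjusted p = 0.000692). Mx1, a dynamin-like GTPase whose allele in this strain is known to be defective, was at 9.12 and 9.04 against 8.08 and 7.57 (-1.26 ± 0.21; limma adjusted p = 0.00294). Rsad2, which encodes viperin, a maker of a chain-terminating nucleotide, was at 10.50 and 10.18 against 9.38 and 9.02 (-1.14 ± 0.21; limma adjusted p = 0.00543). For these 3 effectors, too, the subsets did not overlap. Cmpk2, a mitochondrial nucleotide kinase and the genomic neighbour of Rsad2, differed by -0.71 and the immunity-related GTPase Ifi47 by -1.06, and both were called lower. Ifitm1, which blocks fusion of viral membranes, was called lower by a smaller difference of -0.42 ± 0.11 (limma adjusted p = 0.0229). The related Ifitm3 was at 13.92 to 14.03 on the 8 arrays and was not called, nor were Mx2 (-0.25), the exonuclease Isg20 (-0.03) and Samd9l (-0.17).

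Of the other induced genes, Lgals3bp, a secreted glycoprotein, was at 11.09 and 10.88 in Gr1hi and 10.02 and 9.42 in Gr1lo cells without beads (-1.26 ± 0.21; limma adjusted p = 0.0028). Tor3a, an ATPase of the endoplasmic reticulum, differed by -0.91 and the pro-apoptotic Xaf1 by -0.83. Epsti1 had the smallest called difference, -0.28 ± 0.09 (limma adjusted p = 0.0422), and lost its call under 13 of 17 alternative settings. Besides the 39 probe sets used, 20 further probe sets of 14 of the genes were above background, and 17 of them differed in the same direction as the one used. The 3 that did not belong to Adar, Herc6 and Stat2, which were not called.

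**Figure D2:**
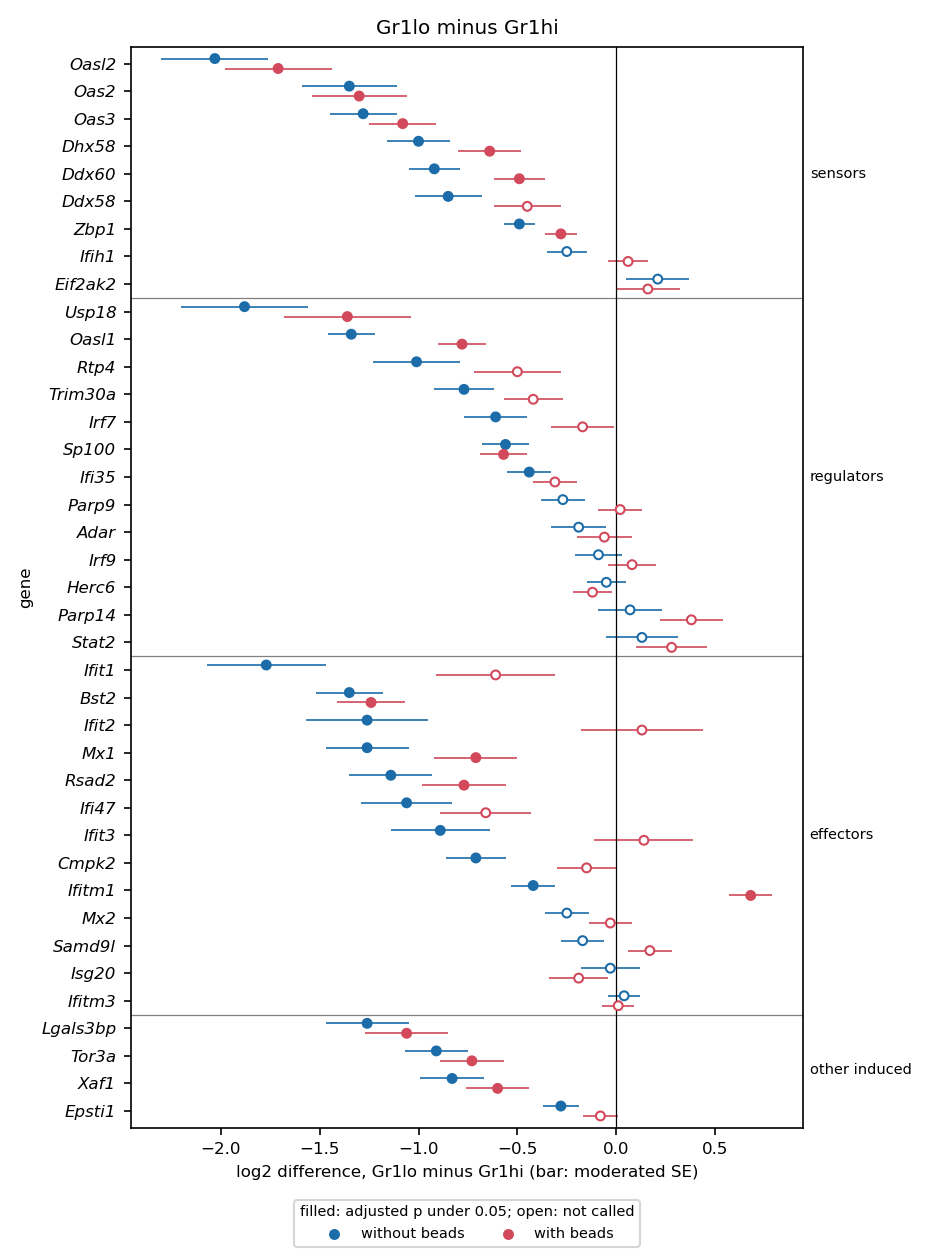
Log2 difference, Gr1lo minus Gr1hi, of the 39 genes without beads (blue) and with beads (red), by role; bars are moderated SEs and filled points were called at an adjusted p under 0.05. Without beads 27 genes are filled, all left of 0; with beads 15 are filled left of 0 and Ifitm1 is filled to the right.

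Among cells that carried beads, interferon-stimulated genes were again mostly lower in the Gr1lo subset. There 15 of the 39 were called lower (limma, adjusted p under 0.05), where 14.6% of all genes were, and 1 higher, where 11.8% were and 26.5% were called in either direction. The difference was below 0 for 28 of the 39, against 55.0% of all genes. The median difference was -0.31 for the 39 genes and -0.03 for all genes, and both Gr1lo arrays lay below both Gr1hi arrays for 21 genes (34.6% of all genes) and above them for 3 (26.8%). By role, 6 of 9 sensors, 3 of 13 regulators, 3 of 13 effectors and 3 of 4 other induced genes were called lower. The 15 genes were among the 27 called lower without beads. The overlap of these calls over all genes was not counted, so it is not read as a trait of these genes. The comparisons share no array, though they share the fit's estimate of the spread. Without array 1 of the Gr1hi group with beads, or without array 2 of the Gr1lo group with beads, 7 of the 39 were called in place of 16, and 3267 or 3624 of all genes in place of 4817.

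Of the sensors, Oasl2 was at 10.74 and 10.38 in Gr1hi and 9.21 and 8.48 in Gr1lo cells with beads (-1.71 ± 0.27; limma adjusted p = 0.00184). Oas2 was at 10.34 and 9.81 against 8.99 and 8.56 (-1.30 ± 0.24; limma adjusted p = 0.00406), and Oas3 at 9.01 and 8.71 against 7.81 and 7.75 (-1.08 ± 0.17; limma adjusted p = 0.0017). The arrays did not overlap for any of these 3. Dhx58 differed by -0.64, Zbp1 by -0.28 and Ddx60, below background on these 4 arrays, by -0.49. Ddx58 was not called at -0.45 ± 0.17 (limma adjusted p = 0.0869), nor were Ifih1 (0.06) and Eif2ak2 (0.16). Zbp1 lost its call under 11 of 17 alternative settings and Ddx60 under 6 of 16.

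Of the regulators, Usp18 read 9.06 and 8.22 in Gr1hi and 7.50 and 7.06 in Gr1lo cells with beads (-1.36 ± 0.32; limma adjusted p = 0.0142). Oasl1 read 8.26 and 7.99 against 7.46 and 7.24 (-0.78 ± 0.12; limma adjusted p = 0.00141). Sp100 was called lower at -0.57. Irf7, at 10.30 and 10.04 in Gr1hi and 10.12 and 9.89 in Gr1lo cells, overlapped between the subsets and was not called (-0.17 ± 0.16; limma adjusted p = 0.51). The other 9 regulators were not called either, and lay between -0.50 for Rtp4 and 0.38 for Parp14.

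Among the effectors, Bst2 was at 10.16 and 10.20 in Gr1hi and 9.18 and 8.71 in Gr1lo cells with beads (-1.24 ± 0.17; limma adjusted p = 0.000797), and Rsad2 (-0.77) and Mx1 (-0.71) were also called lower. Mx1 lost its call under 7 of 17 alternative settings. The IFIT genes overlapped: Ifit1 was at 8.10 and 7.51 in Gr1hi and 7.52 and 6.88 in Gr1lo cells, Ifit2 at 8.26 and 7.72 against 8.48 and 7.76, and Ifit3 at 8.52 and 8.10 against 8.78 and 8.12. None of the 3 was called. Ifitm1 was higher in Gr1lo cells, at 10.29 and 10.30 against 9.70 and 9.54 (0.68 ± 0.11; limma adjusted p = 0.00193), the reverse of its order without beads. The other 6 effectors, uncalled, lay between -0.66 for Ifi47 and 0.17 for Samd9l. Among the other induced genes Lgals3bp (-1.06), Tor3a (-0.73) and Xaf1 (-0.60) were called lower and Epsti1 (-0.08) was not. Of the 20 further probe sets, 12 had the sign of the one used in this comparison. Those that did not included a second Ddx58 probe set and one of Tor3a.

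Over both bead states, the 4 Gr1lo arrays lay below the 4 Gr1hi arrays for 18 of the 39 genes, against 19.7% of all genes, and above them for 0, against 13.9%. Of the 18, 7 were sensors, 5 regulators, 4 effectors and 2 other induced genes.

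The comparison of bead-carrying with bead-free Gr1hi cells asks what accompanies uptake in the classical subset. The difference was below 0 for 39 of the 39 interferon-stimulated genes, against 54.5% of all genes, with a median of -0.38 (all genes -0.02) and a range of -0.95 to -0.02. Only Ifitm1 was called (limma, adjusted p under 0.05), where 0.0989% of all genes were called lower and 0.247% in either direction. An unadjusted p (limma) under 0.05 was found for 17 of the 39 and for 1806 of all 18193 genes. Both bead arrays lay below both bead-free arrays for 32 of the 39, against 25.0% of all genes. The bead-free Gr1hi arrays are also those of the subset comparison without beads, so the 2 comparisons are not independent. The median was -0.22 without array 2 of the Gr1hi group with beads and -0.24 without array 1 of that without beads. In the same comparison 8 of 8 neutrophil markers were lower with beads, by a median of -0.71 with 1 called. Both bead arrays lay below both bead-free arrays for 4 of these 8, and Cxcr2 was below background on all 8 arrays. Lower with beads were also 6 of 6 classical monocyte markers, by a median of -0.36 with 0 called by limma (3 at an unadjusted p under 0.05). Of 9 nonclassical monocyte markers, 8 were higher, by a median of 0.42 over the 9 with 3 called. Of 8 tissue macrophage markers, 7 were higher, by a median of 0.71 over the 8; Spic was called (1.47), and the complement genes C1qa (1.36), C1qb (1.38) and C1qc (1.31) were not. Of 3 erythroid markers, Hba-a2 was called lower (-0.83), Alas2 was higher (0.33) and not called, and Hba-a1 was below background.

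Ifitm1 was at 10.28 and 10.50 in Gr1hi cells without beads and 9.70 and 9.54 with beads. It fell by 0.77 ± 0.11 (limma adjusted p = 0.0359), and this call was lost under 9 of 17 alternative settings. Among these were leaving out any 1 of the 4 Gr1hi arrays or of the 2 Gr1lo arrays with beads. Such fits leave 1 array in a group and called fewer of all genes too. Cmpk2 was at 9.67 and 9.44 against 8.87 and 8.50, a difference of -0.87 ± 0.15 that was not called (limma adjusted p = 0.0872). A second Cmpk2 probe set differed by less, at 7.92 and 7.99 against 7.84 and 7.49. The largest differences, -0.95 for both, were those of Usp18, at 9.95 and 9.23 against 9.06 and 8.22, and Ifit1, at 9.04 and 8.47 against 8.10 and 7.51. For these 4 genes the bead arrays were below the bead-free arrays, and the arrays did not overlap.

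The next smallest p-values were those of the sensor Ifih1 (-0.41 ± 0.10; limma adjusted p = 0.222), Xaf1 (-0.58 ± 0.16; limma adjusted p = 0.277), Samd9l (-0.41 ± 0.11; limma adjusted p = 0.278) and Ddx60 (-0.42 ± 0.13; limma adjusted p = 0.32). Uncalled differences of more than 0.5 units were also seen for Ifit2 (-0.71), Ifit3 (-0.57) and Mx1 (-0.56). By role the medians were -0.38 for sensors, -0.28 for regulators, -0.43 for effectors and -0.26 for the other induced genes. The smallest differences were those of Oas2 (-0.02), Bst2 (-0.03), Lgals3bp (-0.03), Ifitm3 (-0.04) and Herc6 (-0.04). Oas2, Bst2 and Lgals3bp were among the genes that separated the subsets by more than 1 unit in both bead states. Of the 20 further probe sets, 18 had the sign of the one used.

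**Figure D3:**
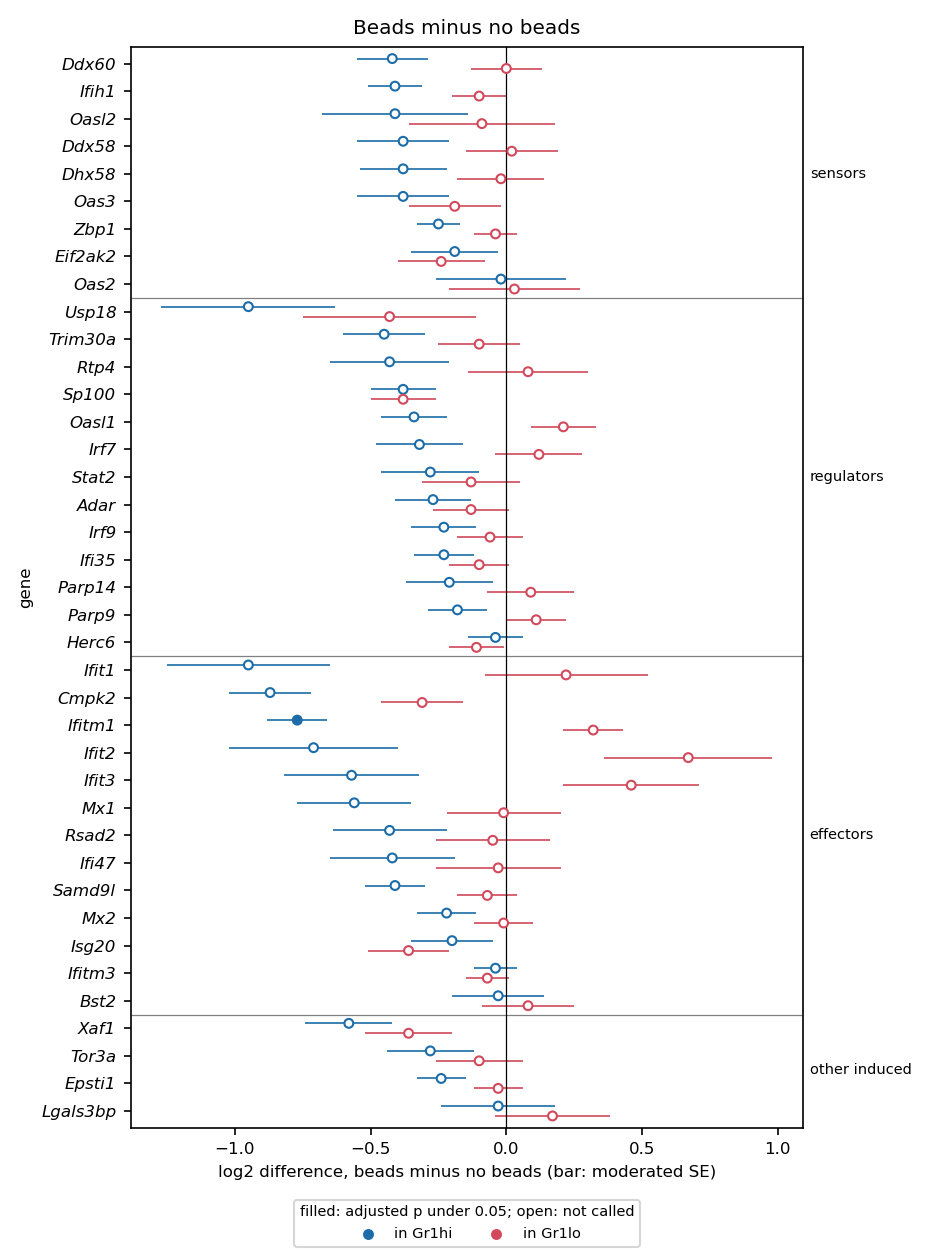
Log2 difference, beads minus no beads, of the 39 genes in Gr1hi (blue) and Gr1lo (red) cells, by role; bars are moderated SEs and the filled point was called at an adjusted p under 0.05. In Gr1hi cells the 39 points lie left of 0, with Ifitm1 filled; in Gr1lo cells they lie on both sides, from -0.43 to 0.67, with none filled.

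In Gr1lo cells the difference between bead-carrying and bead-free cells was below 0 for 25 of the 39 genes (44.3% of all genes). The median was -0.04 (all genes 0.02), and 0 genes were called by limma, where 0.225% of all genes were. An unadjusted p (limma) under 0.05 was found for 3 of the 39 and for 2402 of all 18193 genes. The direction of the 39 genes changed with the arrays used. Their median was -0.19 with 34 genes below 0 without array 1 of the Gr1lo group with beads. Without array 2 of that group it was 0.13 with 11 below 0. It was 0.08 with 17 below 0 without array 1 of the bead-free Gr1lo group, and -0.13 with 31 without its array 2. Cyclic loess gave 0.01, with 17 below 0. Both bead arrays lay below both bead-free arrays for 6 genes (19.4% of all genes) and above them for 2 (23.3%), Oasl1 and Ifitm1. In these cells 6 of 6 classical monocyte markers were lower with beads, by a median of -2.58 with 4 called. Of 6 markers of conventional dendritic cells 3 were called lower, with a median of -0.95 over the 6 and the largest difference in Cd209a (-3.13). Of 5 NK cell markers Klrd1 was called lower (-2.40), but 3 were higher and the median over the 5 was 0.01. With beads Cd209a read 6.84 and 6.69 and Klrd1 5.26 and 5.28, below background, so their differences are not measured folds. The classical markers Vcan and Mmp8 were also below background with beads, and the dendritic marker Kmo was so on all 8 arrays. Of 8 neutrophil markers 1 was called lower, 6 were higher and the median was 0.11. Of 8 tissue macrophage markers 1 was called higher, 3 were lower and the median was 0.41.

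Sp100 had the smallest p, at 9.24 and 9.0 without beads and 8.86 and 8.61 with beads (-0.38 ± 0.12; limma adjusted p = 0.258). Ifitm1 was at 9.89 and 10.06 against 10.29 and 10.30 (0.32 ± 0.11; limma adjusted p = 0.28). Ifit2 had the largest difference, at 7.83 and 7.07 against 8.48 and 7.76, which overlapped (0.67 ± 0.31; limma adjusted p = 0.407). Among the genes with the 6 smallest p-values were also Isg20 (-0.36), Xaf1 (-0.36) and Cmpk2 (-0.31), lower with beads on both arrays and uncalled. Of the 20 further probe sets, 10 had the sign of the one used.

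Averaged over both subsets, beads went with a difference below 0 for 36 of the 39 genes (48.1% of all genes), with a median of -0.20. The median was -0.13 without array 2 of the Gr1hi group with beads and -0.12 without array 2 of the Gr1lo group with beads, and 31 to 39 genes were below 0 with 1 array left out. Of the 39, 0 were called by limma, where 0.764% of all genes were. An unadjusted p (limma) under 0.05 was found for 13 of the 39 and for 2785 of all 18193 genes. Cmpk2 came nearest (-0.59 ± 0.11; limma adjusted p = 0.0586), followed by Sp100 (-0.38 ± 0.08; limma adjusted p = 0.0961), Xaf1 (-0.47 ± 0.11; limma adjusted p = 0.123), Ifih1 (-0.25), Usp18 (-0.69) and Samd9l (-0.24).

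Whether the bead effect differed between the subsets was tested directly, as the effect in Gr1lo minus that in Gr1hi cells. The test called 0 of the 39 genes (limma, adjusted p under 0.05), where it called 0.0440% of all genes. An unadjusted p (limma) under 0.05 was found for 7 of the 39 and for 1427 of all 18193 genes. The value was below 0 for 5 of the 39 (43.6% of all genes), and the median was 0.30 (all genes 0.03). With 1 array left out, 2 to 10 genes were below 0; the median was 0.16 without array 2 of the Gr1hi group with beads, 0.17 without array 1 of the Gr1lo group with beads and 0.18 without array 1 of the Gr1hi group without beads. Ifitm1 had the smallest p (1.09 ± 0.15; limma adjusted p = 0.104). Ifit2 (1.39 ± 0.44), Ifit1 (1.16 ± 0.42) and Ifit3 (1.03 ± 0.36) had differences of more than 1 unit, with adjusted p-values (limma) of 0.575, 0.597 and 0.594. Oasl1 (0.55 ± 0.17) and Cmpk2 (0.56 ± 0.22) followed.

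Within a group, the 2 arrays differed in the interferon-stimulated genes as a block. The array labelled 1 read above the array labelled 2 for 34 of the 39 genes in Gr1hi cells without beads, 36 in Gr1hi cells with beads, 34 in Gr1lo cells without beads and 37 in Gr1lo cells with beads, where 52.1, 52.6, 45.0 and 47.2% of all genes did. It did so in all 4 groups for 29 of the 39, against 10.7% of all genes. The medians of array 1 minus array 2 were 0.21, 0.26, 0.24 and 0.34 in that order, and the widest single gaps were 0.72 to 0.85 by group. Usp18 showed the gap in each group, with 9.95 against 9.23, 9.06 against 8.22, 7.97 against 7.45 and 7.50 against 7.06, as did Oasl2. Bst2 did so in Gr1lo cells, where it read 9.06 against 8.68 and 9.18 against 8.71, while its gap in Gr1hi cells was 0.02 without beads and -0.04 with beads. The genes thus deviated together within groups, and a count of genes that moved is not a count of independent observations. The reading for 18S ribosomal RNA was lower on array 1 in each group, by least in Gr1hi cells with beads (9.94 against 9.99) and by most in Gr1lo cells without beads (8.58 against 10.13), and its part in the gap was not tested.

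**Figure D4:**
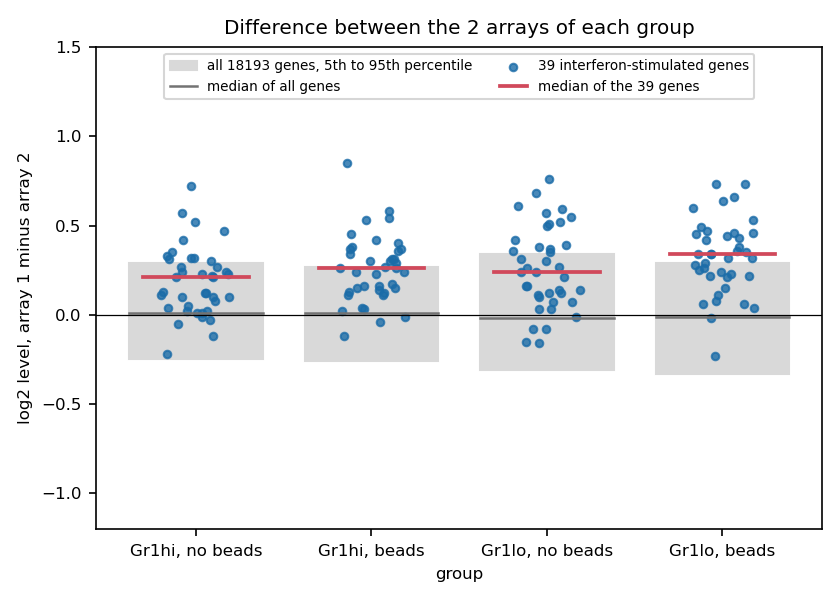
Log2 level on array 1 minus array 2 of each group (x axis); points are the 39 genes, red lines their medians and grey boxes the 5th to 95th percentile of all 18193 genes with their median as a line. The medians of the 39 genes are 0.21 to 0.34, above those of all genes, which are -0.02 to 0.01.

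The genes that make, sense and transmit interferon were read from a separate list. Of its 39 measured genes of interferon production and signalling, 11 were called higher in Gr1lo than in Gr1hi cells without beads and 6 lower (limma), where 10.0% of all genes were called higher and 13.6% lower. With beads 13 were called higher and 3 lower, where 11.8 and 14.6% of all genes were. The median differences were 0.07 and 0.10. The 8 interferon genes measured, Ifnb1 among them, were below background on all 8 arrays, with a highest reading of 6.90, and 0 were called in either comparison. The receptor chain Ifnar1 was at 9.30 and 9.11 in Gr1hi and 9.12 and 8.93 in Gr1lo cells without beads and was not called; Ifnar2 was called higher in Gr1lo cells with beads (0.38).

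Of 5 brakes on cytokine signalling, 4 were called higher in Gr1lo cells in both bead states, against 10.0% of all genes without beads and 11.8% with beads. Socs3, a feedback inhibitor of JAK kinases, was at 10.59 and 10.98 in Gr1hi and 11.90 and 12.26 in Gr1lo cells without beads (1.29 ± 0.18; limma adjusted p = 0.00117) and differed by 1.34 with beads. The phosphatases Ptpn2 (0.49 and 0.58) and Ptpn6 (0.47 and 0.66) and the STAT inhibitor Pias1 (0.37 and 0.40) were also called higher without and with beads, while Socs1 was below background; averaged over all probe sets of the gene, Ptpn2 differed by 0.06 without beads and -0.04 with them. Other genes called higher in both were Tlr7 (0.94 and 0.75), the sensor of single-stranded RNA, Stat3 (0.69 and 0.95), Jak2 (0.47 and 0.46), Ifngr1 (0.78 and 0.57) and the factors Irf1 (0.53 and 1.10), Irf2 (0.60 and 0.89) and Irf3 (0.49 and 0.72). The DNA sensor Cgas was called with beads (0.46).

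Genes called lower in Gr1lo cells in both bead states were Ikbke (-0.86 and -0.80), a kinase that activates Irf3 and Irf7, Sting1 (-0.80 and -0.83), the adaptor of cytosolic DNA sensing, and the myeloid factor Irf8 (-0.44 and -0.47). Sting1 read 10.66 and 10.47 in Gr1hi and 9.87 and 9.67 in Gr1lo cells without beads (limma adjusted p = 0.0013). Called without beads were also Tyk2 (-0.47), the kinase bound to Ifnar1, and Ube2l6 (-0.48), the conjugating enzyme for ISG15, which was above background on 1 array. Tlr3 (-0.45) was called too but was below background on all 8 arrays. Ube2l6 lost its call under 11 of 16 alternative settings and Tlr3 under 7 of 16. Beads called 0 of the 39 pathway genes in either subset by limma. An unadjusted p (limma) under 0.05 was found for 5 in Gr1hi and 4 in Gr1lo cells, against 1806 and 2402 of all 18193 genes.

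**Figure D5:**
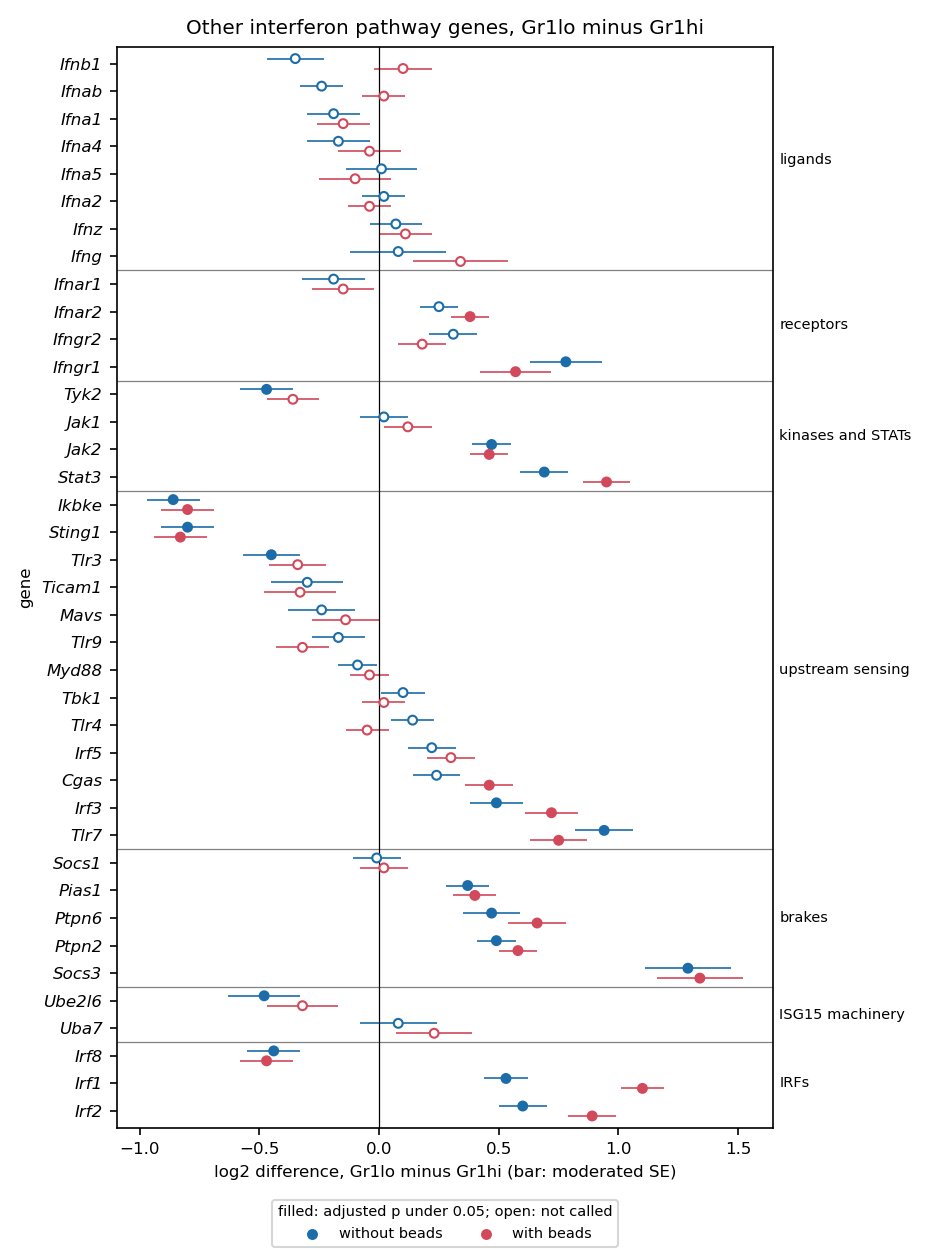
Log2 difference, Gr1lo minus Gr1hi, of 39 pathway genes that are not among the interferon-stimulated genes above, without beads (blue) and with beads (red), by role; bars are moderated SEs and filled points were called at an adjusted p under 0.05. Brakes such as Socs3 lie right of 0, Ikbke and Sting1 left of 0, and the ligands, below background, near 0.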

How the data were processed

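The authors deposited log2 expression values for 45101 probe sets on 8 arrays. Per the submitters' processing notes they were made with RMA, which corrects background, equalises the arrays and summarises probes, and compared with limma; the sources used here name no versions. RMA makes array totals alike, so a difference is relative to the other genes of an array, and it compresses differences near background.

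The 34945 probe sets with a single gene symbol gave 18193 genes. Group means of the 4 groups were fitted to all 8 arrays at once with limma 3.58.1 in R 4.3.3 (eBayes defaults, prior degrees of freedom 4.48, residual 4), two-sided, with Benjamini-Hochberg correction over all genes and calls at an adjusted p under 0.05. Named are the called genes and the 6 with the smallest p per comparison; the other members are given by role. The members, roles and lists were chosen with earlier results of these data known. The number of arrays limits precision. The script was tested on simulated data. Some listed pathway genes are not reported here. Promoter windows came from RefSeq, GRCm38.p6. Markers of conventional dendritic, B, T, NK and erythroid cells and platelets were also read; their list means were 5.77 to 8.14 on the 8 arrays. Alternatives were array weights, cyclic loess, centring on the median, trend and robust estimation, the mean of all probe sets, genes above background, fits of the compared arrays alone, replicate blocks and leaving out each array.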

Additional observations from a re-analysis of the deposited data

Results flagged for a closer look

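For 4 genes the arrays with beads moved in opposite directions in the 2 subsets, both Gr1hi arrays below and both Gr1lo arrays above the bead-free arrays. Of all genes, 25.0% had both Gr1hi bead arrays below the bead-free arrays and 23.3% had both Gr1lo bead arrays above them. The share of all genes with both was not counted. Of the pathway genes, only those with the smallest p for the difference between bead effects were looked at. The bead effect in Gr1lo minus that in Gr1hi cells was 1.09 for Ifitm1 (limma adjusted p = 0.104), 0.55 for Oasl1 (limma adjusted p = 0.558), 0.57 for Irf1 (limma adjusted p = 0.487) and 0.44 for Ifnb1 (limma adjusted p = 0.608). The difference was tested for each and none was called. Ifnb1 was below background on the 8 arrays. Irf1 was at 10.53 and 10.42 without and 10.20 and 10.07 with beads in Gr1hi cells, and at 10.98 and 11.03 without and 11.29 and 11.18 with beads in Gr1lo cells.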

How the results depend on the processing

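Under 9 alternatives that kept all compared arrays, the count of interferon-stimulated genes called between the subsets was 22 to 28 without beads and 13 to 23 with beads; leaving out 1 array gave 16 to 26 and 7 to 17. Counts of bead calls, small to begin with, moved more. In Gr1hi cells (1 called) they were 2 with array weights, 2 with trend and robust estimation, 0 with cyclic loess and 0 with the compared arrays alone. Of all genes these settings called 104, 121, 43 and 48 in place of 45. Averaged over subsets (0 called) they were 2 with trend and robust estimation and 1 with genes above background only. Of all genes these called 326 and 222 in place of 139. For the difference between bead effects (0 called) the count was 1 with trend and robust estimation, where 17 of all genes were called in place of 8. The cause was not tested. The median of the 39 genes for beads in Gr1hi cells was -0.44 to -0.22 over all of these settings, and 36 to 39 genes were below 0.

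The replicate numbers were also used as a replicate block. Deviations of same-numbered arrays correlated at 0.36 in Gr1hi and 0.27 in Gr1lo cells over 18193 genes (0.60 and 0.37 over the 8788 above background). Across subsets they correlated at -0.02 to 0.09, so the numbers were not taken to pair the arrays across subsets. Over the 39 genes alone the deviations correlated at 0.73 and 0.80 within subsets and 0.47 to 0.51 across them. The main fit did not pair arrays by number within a subset either, so its bead comparisons take no account of the deviation shared there. With the block, 28 of the 39 were called between subsets without beads and 23 with beads, and 4663 and 5177 of all genes in place of 4288 and 4817. For beads in Gr1hi cells the block called 4 (Cmpk2, Ifit1, Ifitm1 and Usp18; 56 of all genes in place of 45), in Gr1lo cells 0, averaged 5 (Cmpk2, Ifit1, Sp100, Usp18 and Xaf1; 187 of all genes in place of 139) and for the difference 2 (Ifit1 and Ifit2; 10 of all genes in place of 8). With a replicate block within each subset, chosen after seeing the data, the counts were 25, 20, 4, 1, 5 and 2. Of all genes it called 4180, 4388, 102, 106, 332 and 10 in that order. There the 4 in Gr1hi cells were Cmpk2, Ifit1, Ifit2 and Usp18, without Ifitm1, the 1 in Gr1lo cells was Ifit2, and the genes of the other bead calls were those of the first block. Ptpn2 with beads reversed to -0.04 with the mean of all its probe sets.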
